A study of Mus musculus with 18 samples.

Results

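The sarcoplasmic reticulum calcium store and pump were followed through 10 genes: Casq1, Casq2, Hrc, Srl, Trdn, Asph, Jsrp1, Atp2a1, Atp2a2 and Sln. Each was read by the probe set that carries its symbol alone. Asph had more than 1 such probe set, so its brightest by the mean over 18 arrays was used, and all 10 genes were among the 22180 genes tested, with no filter on low values. The cells were C2C12, a mouse line whose myoblasts fuse into myotubes, kept in 20% fetal bovine serum and shifted to 2% horse serum. All cultures were infected with an shRNA at 36 h of differentiation and harvested after a further 48 h. Of the 3 groups of 6 arrays, the control group received a scrambled short hairpin RNA (shRNA), another an shRNA against Nup210, a membrane protein of the nuclear pore, and the last an shRNA against Mef2c, a muscle transcription factor. The hairpins are not described. No label says whether the 6 arrays of a group stand for 6 cultures, so the p-values rest on a between-array spread that may be technical only.

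The sarcoplasmic reticulum is the calcium store of the muscle fibre. Calsequestrins in its lumen buffer calcium near the release channel, triadin and junctin tether calsequestrin to that channel, and the SERCA pumps return calcium from the cytosol so that the fibre relaxes. Differentiating myotubes build this store while they assemble their sarcomeres. RNA was taken from whole cultures, so fewer cells of a type and less RNA per cell cannot be told apart.

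Mef2c was far lower in every array labelled Mef2c shRNA (log2 level 7.51 to 8.08) than in controls (10.10 to 10.54). Its brighter probe set gave 17.9% of control and the other one 27.6%. The only probe set of Nup210 gave 5.54 to 5.79 in the arrays labelled Nup210 shRNA and 5.57 to 5.81 in controls, a difference of -0.10 ± 0.064 (standard error, SE; limma adjusted p = 0.402). Those levels lie near 5.47, the 95th percentile of 1394 olfactory and vomeronasal receptor genes, used here as a guide to background, so the Nup210 label has no clear mRNA check. Against the Mef2c shRNA arrays Nup210 was lower by -0.23 (adjusted p = 0.0178), a call lost with Nup210 shRNA arrays 2, 4 and 5 left out (0.174). The Mef2c shRNA arrays themselves differed from control by 0.13 at Nup210 (adjusted p = 0.232), which is part of that difference. Nup210 shRNA arrays 2, 4 and 5 had the lowest array weights of the 18 (0.621 to 0.744), and calls of the Nup210 shRNA arrays named here that are lost without them are given both ways. All 12 myotube markers lay above background, as did all 10 markers of myoblasts or reserve cells, all 5 smooth muscle markers (Acta2 at a mean of 13.37), 4 of 6 cardiac and 3 of 5 adipocyte markers. The share above background among all genes tested was 58.7%, and the cardiac and adipocyte counts stood near it.

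In the arrays labelled Nup210 shRNA, 6 of the 10 genes fell and none rose: Casq1, Casq2, Hrc, Asph, Atp2a1 and Atp2a2. Of all genes tested, 8.16% were called at a limma adjusted p under 0.05, 5.11% lower and 3.05% higher. Among genes above background, where 9 of the 10 members lay, 8.52% were called lower and 4.62% higher. The median log2 difference of the 10 genes was -0.25, beside 0.02 for all genes. In 5 of the 6 (all but Casq1) every Nup210 shRNA array lay below every control array, which held for 3.71% of all genes, and no member had every array above the controls, which held for 1.92%. With Mef2c shRNA, Casq1, Srl and Atp2a2 fell, where 10.8% of all genes were called, 6.42% lower, and the median of the 10 was 0.05 beside 0.02 for all genes. Sln was called higher there, as were 4.34% of all genes, but from levels below background. With Mef2c shRNA, 10.7% of genes above background were called lower and 6.5% higher. Every Mef2c shRNA array lay below every control at 2 members, Srl and Atp2a2 (4.77% of all genes), and above them at Sln (2.97%). Without Nup210 shRNA arrays 2, 4 and 5, 4 members were called lower in the Nup210 comparison, where 1.85% of all genes were called lower and 0.69% higher. They were Hrc (adjusted p = 0.0111), Atp2a2 (0.0211) and, close to the threshold, Atp2a1 (0.0446) and Asph (0.0492).

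**Figure D1:**
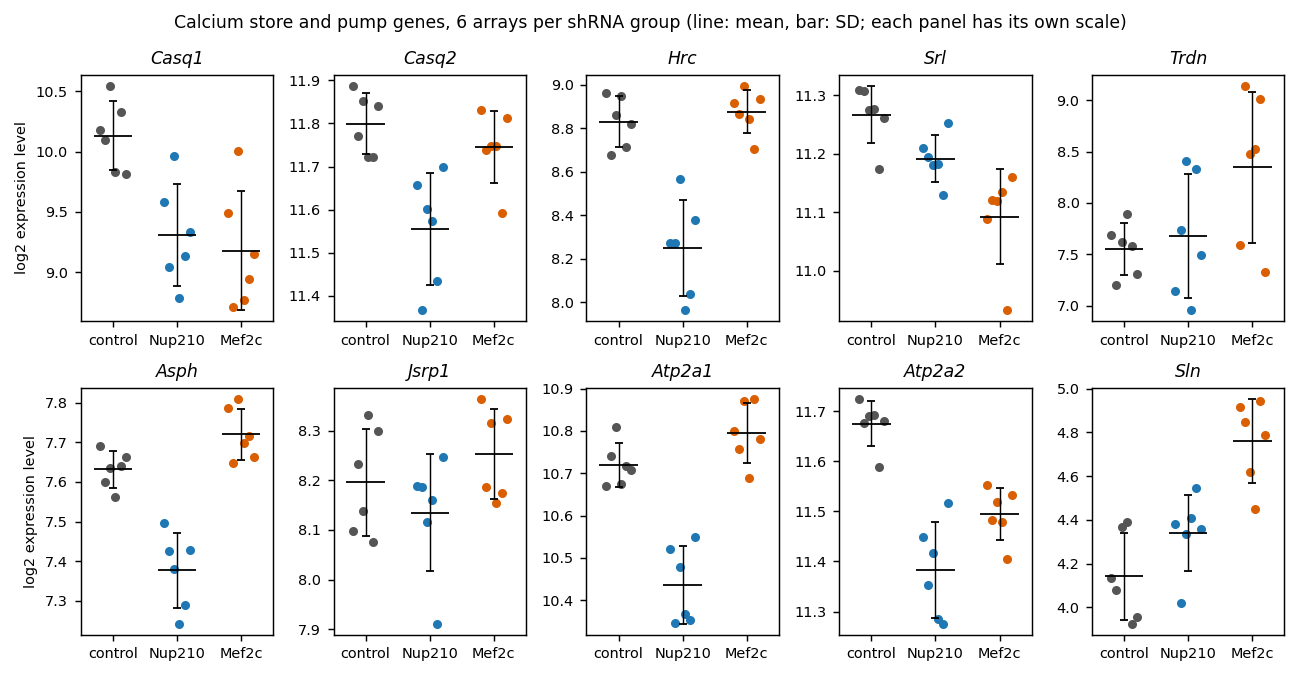
Log2 expression level of the 10 calcium store and pump genes on each of 18 arrays, grouped by shRNA; points are arrays, horizontal lines group means and bars the SD (n = 6), with a separate vertical scale per gene. The Nup210 shRNA arrays of Hrc, Asph, Atp2a1, Atp2a2 and Casq2 all lie below the control arrays, while the Mef2c shRNA arrays of Hrc, Asph and Atp2a1 overlap the controls.

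RefSeq promoter windows (build GRCm38.p6) were at hand for 4 of the 10 genes, Casq1, Casq2, Atp2a1 and Hrc. All 4 were among the 6 genes called lower in the Nup210 comparison. Of them, Casq1 and Casq2 were not called with Nup210 shRNA arrays 2, 4 and 5 left out (adjusted p = 0.391 and 0.255). The bases before each start are shown for every member with a window, without selection on its calls. They read 5′ to 3′ along the gene's strand. Capitals mark E-boxes, the sites CANNTG that myogenic basic helix-loop-helix factors can bind, and in Casq2 also a match to the MEF2 consensus. For Atp2a1 the 30 bases nearest the start lie inside the annotated gene and are not printed.
Casq1, chr1:172219896-172220145, minus strand: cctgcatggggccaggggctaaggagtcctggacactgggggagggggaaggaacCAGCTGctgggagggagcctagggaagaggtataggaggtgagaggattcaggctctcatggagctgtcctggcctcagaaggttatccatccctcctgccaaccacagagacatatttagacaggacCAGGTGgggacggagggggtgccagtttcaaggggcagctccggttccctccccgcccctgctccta
Casq2, chr3:102086165-102086414, plus strand: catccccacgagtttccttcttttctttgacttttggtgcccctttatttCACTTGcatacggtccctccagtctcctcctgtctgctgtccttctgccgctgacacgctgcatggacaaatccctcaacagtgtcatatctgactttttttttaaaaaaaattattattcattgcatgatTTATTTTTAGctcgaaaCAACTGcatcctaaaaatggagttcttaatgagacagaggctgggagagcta
Hrc, chr7:45335019-45335268, plus strand: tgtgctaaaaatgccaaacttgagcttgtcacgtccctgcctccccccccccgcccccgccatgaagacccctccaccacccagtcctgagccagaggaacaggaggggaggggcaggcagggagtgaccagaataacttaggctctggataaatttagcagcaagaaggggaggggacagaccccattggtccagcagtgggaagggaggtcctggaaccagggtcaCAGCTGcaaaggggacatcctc
Atp2a1, chr7:126463104-126463323, minus strand: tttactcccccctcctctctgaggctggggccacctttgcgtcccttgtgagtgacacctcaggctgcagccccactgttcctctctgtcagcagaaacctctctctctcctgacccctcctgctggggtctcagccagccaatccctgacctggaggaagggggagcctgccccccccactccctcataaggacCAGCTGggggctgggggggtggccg

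Each of these 4 windows of 250 bases held at least 1 E-box, as did 66.2% of the 32851 windows of the table. Both motifs read the same on either strand. The variant CAGCTG stood in Casq1 (195 to 190 bases before the start), Atp2a1 (55 to 50) and Hrc (22 to 17), and in 13% of all windows. Casq2 held CACTTG and CAACTG in place of it. Its MEF2 consensus match, TTATTTTTAG at 69 to 60 bases before the start, was of a kind found in 2.92% of windows, and overlapped no E-box. These are matches of letters and not measured binding sites.

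Casq1 encodes the calsequestrin of fast skeletal muscle, the main calcium buffer of the store, and it showed the widest difference of the store proteins in both shRNA groups. Its log2 level (probe set 17229851) ran from 9.81 over a median of 10.14 to 10.55 in controls. In the Nup210 shRNA arrays it ran from 8.79 over 9.24 to 9.96, and in the Mef2c shRNA arrays from 8.71 over 9.05 to 10.01. Array 3 of each shRNA group reached into the control range, and the other 5 arrays of each lay below every control. The mean was 56.5% of control with Nup210 shRNA (log2 difference -0.82 ± 0.22 SE, adjusted p = 0.0238) and 51.6% with Mef2c shRNA (-0.95 ± 0.22, adjusted p = 0.00695). Both comparisons use the same control arrays. The shRNA groups differed from each other by 0.13, with a 95% interval from -0.33 to 0.59 (adjusted p = 0.802), so they were not told apart at this gene. The Nup210 comparison no longer passed when any 1 of 4 arrays was left out, namely Nup210 shRNA array 2 (0.0567), array 4 (0.0618), array 5 (0.0542) and control array 3 (adjusted p = 0.0598). With all 3 of those Nup210 shRNA arrays left out the difference from control was -0.50 (adjusted p = 0.391). The difference between the shRNA groups was then 0.45 (adjusted p = 0.343). The call in the Mef2c comparison held in each of these settings. Nup210 shRNA arrays do not enter that difference, which stays at -0.95 without them, so of these arrays only control array 3 bears on its size. With each of the 18 arrays left out in turn it ran from -1.12 to -0.86 and was called each time.

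The Casq1 level also varied strongly within groups, with a pooled SD of 0.409 that exceeded the SD of 99.7% of genes above background. Array 3 was the highest array of the control, Nup210 shRNA and Mef2c shRNA groups alike. A shared number at the top of all 3 groups was seen for 5.64% of genes tested and for no other of the 10 members. Set beside the control of the same number, Nup210 shRNA arrays 1 to 6 differed by -0.59, -1.06, -0.58, -1.04, -1.19 and -0.47, and the Mef2c shRNA arrays by -0.69, -1.38, -0.54, -1.06, -1.39 and -0.66. Every one of these 12 differences was negative. The numbers are those of the sample titles, and nothing in the labels says that they mark a shared culture or day.

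**Figure D2:**
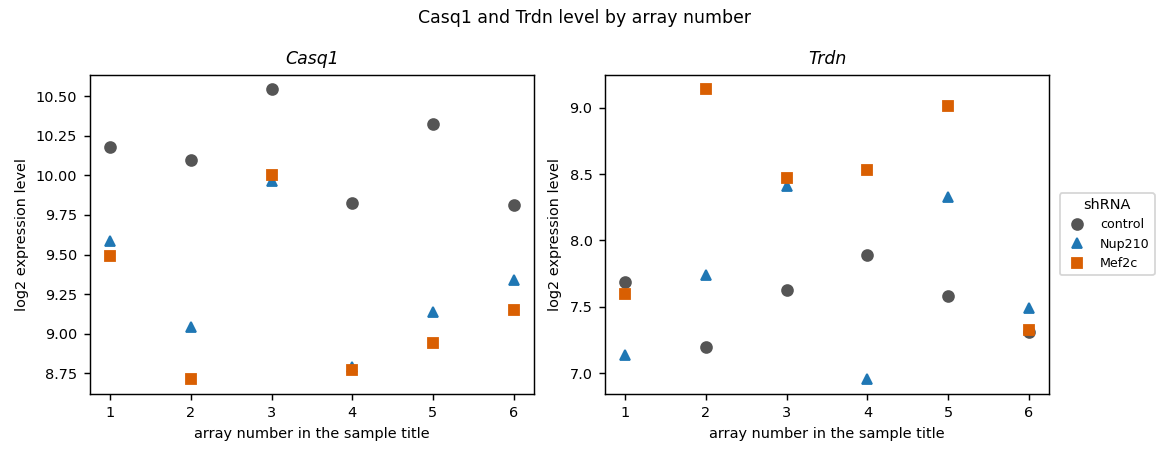
Log2 expression level of Casq1 (left) and Trdn (right) against the array number in the sample title, with a symbol per shRNA group and 1 point per array. For Casq1, array 3 is the highest of each group and both shRNA groups lie below the control of the same number throughout; for Trdn the Mef2c shRNA arrays spread from 7.33 to 9.14.

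Casq2, the calsequestrin of cardiac and slow muscle, fell by a smaller amount and in the Nup210 comparison alone passed the test. Its level (probe set 17401041) ran from 11.72 over 11.81 to 11.89 in controls, from 11.37 over 11.59 to 11.70 in the Nup210 shRNA arrays and from 11.59 over 11.75 to 11.83 in the Mef2c shRNA arrays. The Nup210 shRNA arrays lay just below the controls without overlap, and the Mef2c shRNA arrays overlapped both. The mean was 84.5% of control with Nup210 shRNA (-0.24 ± 0.059 SE, adjusted p = 0.0129), and did not pass when Nup210 shRNA arrays 2, 4 and 5 were left out (-0.15, adjusted p = 0.255). With Mef2c shRNA it was 96.3% of control, with a log2 difference of -0.05 (95% interval -0.18 to 0.07, adjusted p = 0.65). Directly compared, the Nup210 shRNA arrays were lower by -0.19 ± 0.059 (adjusted p = 0.0362), but that call was lost without any 1 of 8 arrays, Nup210 shRNA 2, 4 or 5 or Mef2c shRNA 1, 2, 3, 4 or 6 (adjusted p = 0.0531 to 0.0863), with array weights (0.0561) and in a fit of these groups alone (0.083). With Nup210 shRNA arrays 2, 4 and 5 all left out the direct difference was -0.09 (adjusted p = 0.414).

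Hrc encodes a lumenal protein rich in histidine that binds calcium and also contacts triadin and SERCA, and it fell in the Nup210 comparison. In controls its level (probe set 17477774) ran from 8.68 over 8.84 to 8.96, and in the Mef2c shRNA arrays from 8.70 over 8.89 to 9.0. In the Nup210 shRNA arrays it ran from 7.96 over 8.27 to 8.57, below every array of both other groups. The mean was 66.8% of control (-0.58 ± 0.087 SE, adjusted p = 0.000319) and 64.7% of the Mef2c shRNA mean (-0.63 ± 0.087, adjusted p = 5.54e-05). The difference from control was still called with Nup210 shRNA arrays 2, 4 and 5 left out, at -0.42 (adjusted p = 0.0111). With Mef2c shRNA the difference from control was 0.05, with a 95% interval from -0.14 to 0.23 (adjusted p = 0.821).

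Srl encodes sarcalumenin, a calcium-binding glycoprotein of the longitudinal reticulum that supports SERCA. Its level (probe set 17327737) ran from 11.17 over 11.28 to 11.31 in controls, from 11.13 over 11.19 to 11.25 in the Nup210 shRNA arrays and from 10.93 over 11.12 to 11.16 in the Mef2c shRNA arrays. The Mef2c shRNA arrays all lay below the controls, and the mean there was 88.6% of control (-0.17 ± 0.042 SE, adjusted p = 0.00978). The Nup210 shRNA mean was 94.9% of control (-0.08, 95% interval -0.16 to 0.01, adjusted p = 0.337). The difference between the shRNA groups, 0.10 ± 0.042, did not pass (adjusted p = 0.143), so Srl was not shown to differ between them.

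Among the proteins of the junctional membrane, Asph fell in the Nup210 comparison, and neither Trdn nor Jsrp1 passed. The Asph locus makes junctin, which links calsequestrin to the release channel, and by alternative transcripts an aspartyl hydroxylase. Its brighter probe set (17423146) ran from 7.56 over 7.64 to 7.69 in controls, from 7.24 over 7.40 to 7.50 in the Nup210 shRNA arrays and from 7.65 over 7.71 to 7.81 in the Mef2c shRNA arrays. The Nup210 shRNA arrays lay below both other groups without overlap, at 83.8% of control (-0.25 ± 0.047 SE, adjusted p = 0.0017) and 78.8% of the Mef2c shRNA mean (-0.34 ± 0.047, adjusted p = 4.43e-05). The difference of the Mef2c shRNA arrays from control was 0.09, with a 95% interval from -0.0091 to 0.19 (adjusted p = 0.275). The other Asph probe set (17411714) ran from 6.19 to 6.85 in controls and from 6.24 to 6.86 in the Nup210 shRNA arrays. Its difference was 0.09 ± 0.12 (adjusted p = 0.771), so the fall was read by 1 of the 2 probe sets, and the mean of both did not pass (-0.08, adjusted p = 0.484). Which transcripts each probe set reads was not analysed here.

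Trdn encodes triadin, the membrane anchor between calsequestrin and the release channel, and it was the least reproducible of the 10. Its level (probe set 17232453) ran from 7.20 over 7.60 to 7.89 in controls, from 6.96 over 7.62 to 8.41 in the Nup210 shRNA arrays and from 7.33 over 8.50 to 9.14 in the Mef2c shRNA arrays. Of the Mef2c shRNA arrays, 2, 3, 4 and 5 lay above every control and 1 and 6 within the control range. The mean was 174% of control with Mef2c shRNA (0.80 ± 0.30 SE, 95% interval 0.16 to 1.43), which did not pass (adjusted p = 0.107) except without Mef2c shRNA array 6 (adjusted p = 0.0309). With Nup210 shRNA the difference was 0.13, with a 95% interval from -0.51 to 0.76 (adjusted p = 0.874). Its pooled SD of 0.569 exceeded that of nearly every gene above background.

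Jsrp1 encodes JP-45, a junctional protein that binds the voltage sensor and calsequestrin. Its level (probe set 17243102) ran from 8.07 over 8.19 to 8.33 in controls, from 7.91 over 8.17 to 8.25 in the Nup210 shRNA arrays and from 8.15 over 8.25 to 8.36 in the Mef2c shRNA arrays, and all 3 groups overlapped. The difference from control was -0.06 (95% interval -0.19 to 0.07, adjusted p = 0.657) with Nup210 shRNA and 0.06 (95% interval -0.07 to 0.19, adjusted p = 0.652) with Mef2c shRNA.

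The SERCA pumps both fell in the Nup210 comparison, and they differed in the Mef2c comparison. Atp2a1 encodes SERCA1, the pump of fast muscle. Its level (probe set 17496211) ran from 10.67 over 10.71 to 10.81 in controls, from 10.35 over 10.42 to 10.55 in the Nup210 shRNA arrays and from 10.69 over 10.79 to 10.88 in the Mef2c shRNA arrays. The Nup210 shRNA arrays again lay below both other groups, at 82.1% of control (-0.28 ± 0.047 SE, adjusted p = 0.000779) and 78% of the Mef2c shRNA mean (-0.36 ± 0.047, adjusted p = 3.3e-05). Against control the Mef2c shRNA arrays differed by 0.08 (95% interval -0.02 to 0.17, adjusted p = 0.377).

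Atp2a2 encodes SERCA2, whose products serve slow and cardiac muscle and, as a widespread isoform, the endoplasmic reticulum of other cells. Its level (probe set 17452405) ran from 11.59 over 11.69 to 11.72 in controls, from 11.28 over 11.38 to 11.52 in the Nup210 shRNA arrays and from 11.41 over 11.50 to 11.55 in the Mef2c shRNA arrays. Both shRNA groups lay below all controls and overlapped each other. The mean was 81.7% of control with Nup210 shRNA (-0.29 ± 0.045 SE, adjusted p = 0.000396) and 88.3% with Mef2c shRNA (-0.18 ± 0.045, adjusted p = 0.0132). The latter call was lost without control arrays 4 and 6 (adjusted p = 0.0651). The shRNA groups differed by -0.11 ± 0.045, which did not pass (adjusted p = 0.118).

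Sln encodes sarcolipin, a small membrane peptide that inhibits SERCA. Its probe set (17517360) lay below the background level of 5.47 on every array, from 3.93 over 4.11 to 4.39 in controls, from 4.02 over 4.37 to 4.54 in the Nup210 shRNA arrays and from 4.45 over 4.82 to 4.95 in the Mef2c shRNA arrays. The Mef2c shRNA arrays lay above all controls and were called higher (0.62 ± 0.10 SE, adjusted p = 0.000538), but with both groups below background the size of the change in Sln RNA is not measured. Against control the Nup210 shRNA arrays differed by 0.20 (95% interval -0.02 to 0.42, adjusted p = 0.297).

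**Figure D3:**
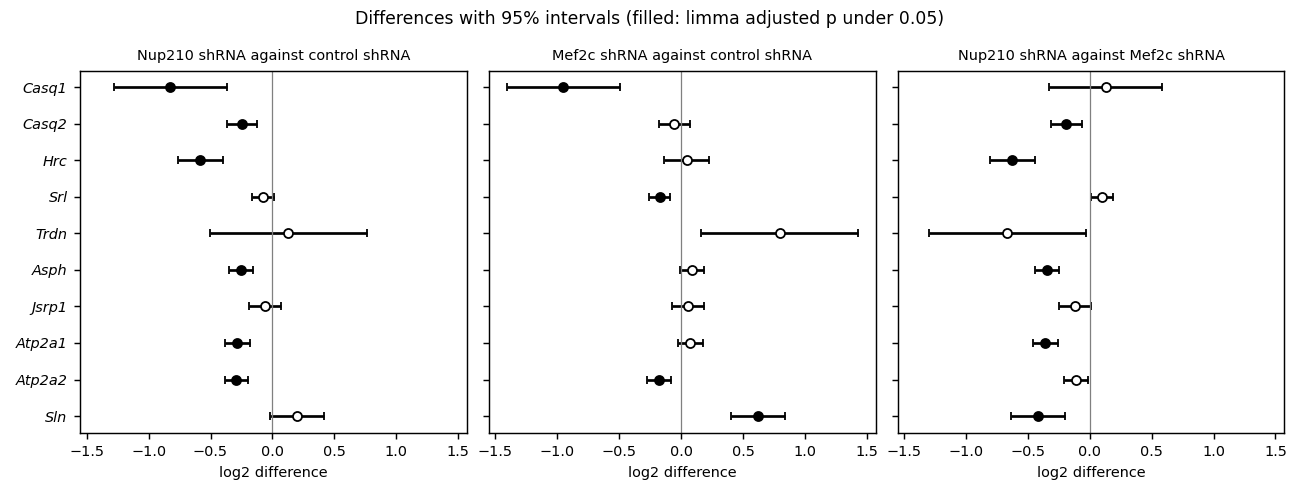
Log2 difference of each gene in the 3 comparisons, with 95% intervals from the limma fit (n = 6 arrays per group); filled points passed an adjusted p under 0.05. Casq1 is low in both comparisons with control and near 0 between the shRNA groups, whereas Hrc, Asph and Atp2a1 are low in the Nup210 comparisons and near 0 with Mef2c shRNA.

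Set directly against each other, the Nup210 shRNA arrays were lower than the Mef2c shRNA arrays at 5 of the 10 genes, namely Hrc, Atp2a1, Asph, Casq2 and, below background, Sln, and higher at none. Of all genes tested, 14% were called in this comparison, 6.93% lower and 7.1% higher, and the median difference of the 10 was -0.27. Among genes above background 11.0% were called lower and 11.5% higher. At Hrc, Asph and Atp2a1 the arrays of these groups did not overlap, which held in this direction for 4.12% of all genes and in the other, seen at no member, for 4.5%. These 3 calls also held without Nup210 shRNA arrays 2, 4 and 5. Counted by array, each Nup210 shRNA array was below all 6 controls at 5 to 8 of the 10 genes, and each Mef2c shRNA array at 2 to 4. The same held for 16.9% to 21.5% of all genes on the Nup210 shRNA arrays and for 18.2% to 21.6% on the Mef2c shRNA arrays. The arrays with the most such genes were Nup210 shRNA array 5 (8 genes) and Mef2c shRNA array 5 (4 genes).

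Some markers of differentiation were also called in the comparisons with control. The shares of all genes called were 5.11% lower and 3.05% higher with Nup210 shRNA, and 6.42% and 4.34% with Mef2c shRNA. Of 12 myotube markers, 3 fell with Nup210 shRNA (Ckm, Myh3 and Mymk) and 3 with Mef2c shRNA (Actn2, Myh3 and Acta1), and none rose. With Nup210 shRNA arrays 2, 4 and 5 left out Mymk did not pass (adjusted p = 0.0716). That fit called 1.85% of all genes lower and 0.69% higher. The mean log2 level of the 12 per array ran from 10.96 to 11.10 in controls, 10.79 to 10.99 in the Nup210 shRNA arrays and 10.76 to 11.00 in the Mef2c shRNA arrays. Myog, which drives terminal differentiation, did not pass in either comparison with control (differences of 0.01 and -0.16). Of 10 myoblast or reserve cell markers, Myf5 alone was called with Nup210 shRNA, and it rose by 0.66. With Mef2c shRNA 5 fell, among them the proliferation gene Top2a (-0.83), and Myf5 rose. Their mean level ran from 8.72 to 8.84 in controls, 8.77 to 8.90 with Nup210 shRNA and 8.38 to 8.56 with Mef2c shRNA. Smooth muscle markers had 3 falls of 5 with Nup210 shRNA (1, Smtn, with those 3 arrays left out) and 2 with Mef2c shRNA. Cardiac markers had none of 6 called with Nup210 shRNA, and 1 fall and 1 rise with Mef2c shRNA. Adipocyte markers had none of 5 called with Nup210 shRNA and 1 rise with Mef2c shRNA. Single calls in lists this short cannot be told from the shares of all genes. The part of these shifts in the calcium store results was not tested.

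Of 63 further genes of calcium handling, 54 were measured. Above background lay 51 of them, and the shares called among all genes above background, given earlier, are larger than those below. With Nup210 shRNA 11 fell and 2 rose, where 5.11% of all genes were called lower and 3.05% higher. With Mef2c shRNA 11 fell and 7 rose, beside 6.42% and 4.34% of all genes. Between the shRNA groups 19 were lower with Nup210 shRNA and 10 higher, beside 6.93% and 7.1%. The lower ones included 6 of 9 release channel and voltage sensor genes and 6 of 10 junctional membrane organisers. The higher ones included 4 of 8 lumenal proteins. Of the 10 members 5 were lower there. The median log2 difference of the 54 from control was -0.07 with Nup210 shRNA and 0.02 with Mef2c shRNA. Without Nup210 shRNA arrays 2, 4 and 5 the Nup210 count against control was 5 falls and no rise, beside 1.85% and 0.69% of all genes. The direct count in that fit was 14 lower and 9 higher, beside 4.49% and 4.93%. Of the release channel and voltage sensor genes 3 were then lower, and of the junctional membrane organisers 5. After median centring of the arrays the Mef2c split against control was 12 falls and 4 rises, beside 1428 and 644 among all 22180 genes. With renewed quantile normalization it was 9 and 10, beside 1317 and 1235.

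Among 9 genes of the release channel and voltage sensor, 2 fell with Nup210 shRNA and 1 rose with Mef2c shRNA. Stac3, an adaptor of the voltage sensor, fell by 0.28 on the log2 scale, and Cacna1s, the pore subunit of that sensor, fell by 0.25. With Nup210 shRNA arrays 2, 4 and 5 left out neither passed (adjusted p = 0.063 and 0.0999). Ryr3, a minor release channel of developing muscle, rose by 0.44 with Mef2c shRNA (adjusted p = 0.000265). The main release channel Ryr1 did not pass against control in either group (-0.15 and 0.05), and between the shRNA groups it was lower with Nup210 shRNA (-0.19, adjusted p = 0.0196), a call lost with Nup210 shRNA arrays 2, 4 and 5 left out (-0.10, adjusted p = 0.239) and in a fit of these groups alone (0.0621).

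Of 10 genes that organise the junctional membrane, 4 fell with Nup210 shRNA, and 2 with arrays 2, 4 and 5 of that group left out, when Jph2 (adjusted p = 0.115) and Speg (0.0551) no longer passed. Junctophilin Jph1, which spans the gap between T-tubule and store, fell by 0.36 (adjusted p = 0.000238), and Tmem38b, a cation channel subunit of the reticulum, fell by 0.29. With Mef2c shRNA Jph1 fell too, by 0.27 (adjusted p = 0.00193). Tmem38a, the muscle form of that channel subunit, was called higher with Mef2c shRNA (0.19, adjusted p = 0.0478), a call lost without any 1 of 12 arrays, without control arrays 4 and 6 and after median centring.

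Of 6 other pumps and pump regulators none fell and 1 rose in each comparison with control. Mrln, which encodes the SERCA inhibitor myoregulin, rose by 0.51 with Mef2c shRNA (± 0.067 SE, adjusted p = 6.35e-05), to 142% of control. With Nup210 shRNA it differed by -0.09 (adjusted p = 0.528), and the Nup210 shRNA mean was 66.3% of the Mef2c shRNA mean (adjusted p = 7.07e-06). Atp2b4, a plasma membrane calcium pump, rose by 0.16 with Nup210 shRNA, a call lost after median centring, without Nup210 shRNA arrays 2, 4 and 5 or without control arrays 4 and 6. Phospholamban (Pln), the inhibitor related to sarcolipin, lay below background at a mean of 4.85.

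Calcium-binding and folding proteins of the general endoplasmic reticulum had 2 falls among 8 with Nup210 shRNA and 5 with Mef2c shRNA. The reticulocalbin Rcn1 fell to 51.7% of control with Mef2c shRNA (-0.95 ± 0.050 SE, adjusted p = 1.15e-09), a fall of about the size seen for Casq1 there. With Nup210 shRNA Rcn1 differed by -0.14 (adjusted p = 0.102), and the groups differed directly by 0.81 (adjusted p = 1.24e-08). Rcn2 fell by 0.30 with Mef2c shRNA. With Nup210 shRNA the lectin chaperone Canx fell by 0.19 and the disulphide isomerase Pdia3 by 0.17, the latter call being lost without any 1 of 6 arrays and in 4 other settings, the fit with Nup210 shRNA arrays 2, 4 and 5 left out among them (adjusted p = 0.34). Pdia3 fell with Mef2c shRNA too, by 0.23 (adjusted p = 0.00257).

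Store refilling and calcium signalling genes moved in both directions. With Mef2c shRNA the store sensor Stim1 rose by 0.33 and its relative Stim2 fell by 0.49 (adjusted p = 0.000259 and 2.07e-06). With Nup210 shRNA the sodium-calcium exchanger Slc8a1 rose by 0.35, a call lost without arrays 2, 4 and 5 of that group, and the IP3 receptor Itpr3 fell by 0.30, a call lost when its probe sets were averaged (adjusted p = 0.266). Camk2a, a calcium-dependent kinase whose locus also makes a protein of the reticulum membrane, fell to 60% of control with Nup210 shRNA (-0.74 ± 0.086 SE, adjusted p = 2.85e-05). It fell by 0.28 with Mef2c shRNA, a call lost without any 1 of 13 arrays, and the mitochondrial uniporter Mcu fell by 0.25 there.

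**Figure D4:**
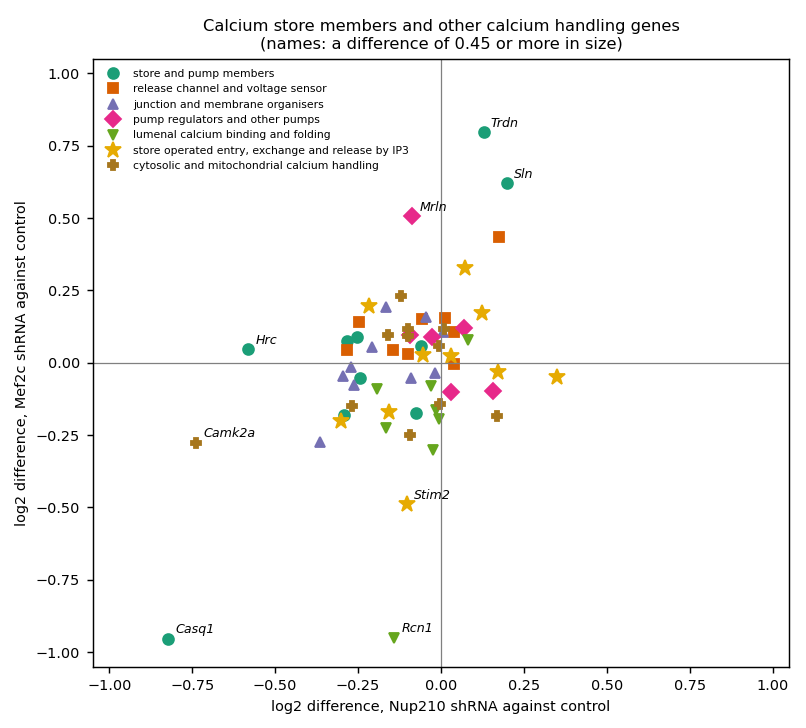
Log2 difference with Nup210 shRNA (horizontal) against that with Mef2c shRNA (vertical) for the 10 store and pump genes and 54 other calcium handling genes, with a symbol per role; both axes use the same control arrays. Casq1 lies low on both axes, Hrc and Camk2a to the left, and Rcn1 at the bottom.

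For each member above background, the gene outside the set whose level followed it most closely over the 18 arrays was found by Pearson correlation, given as a description since the arrays fall into 3 groups. Group differences enter that correlation, so a partner's shared direction follows in large part from how it was picked. A looser partner for a gene without a call may follow from it too. Casq1 was followed by Grasp (r = 0.97, n = 18 arrays), which also fell in both comparisons with control (-0.32 and -0.34), the former call being lost with Nup210 shRNA arrays 2, 4 and 5 left out (-0.23, adjusted p = 0.243). Hrc was followed by Slc44a4 (0.96), Atp2a1 by Plpp1 (0.96), Atp2a2 by Pde2a (0.96), Asph by Ptpn3 (0.95), Srl by Asns (0.95) and Casq2 by Cyb5r3 (0.93). Pde2a fell in both comparisons (-0.80 and -0.54), as Atp2a2 did. Trdn and Jsrp1, the genes with no call, had the loosest partners, Resf1 (0.91) and Ccdc162 (0.84).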

How the data were processed

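The deposited values are log2 expression levels per probe set of 18 one-colour arrays. Per the submitters' processing notes the authors used RMA and Partek; their versions and settings, and the build, are not given here. RMA equalises array distributions and compresses differences of dim genes. No scan date or slide was used here, so batches were not examined. Gene names came from the platform's annotation table: 23521 of 41345 had 1 symbol, 1814 several (left out), and RefSeq's GRCm38.p6 gene table changed 0 symbols. The brightest probe set stood for each of 22180 genes.

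All 18 arrays were fitted in limma 3.58.1 (R 4.3.3), 1 mean per group, with Benjamini-Hochberg adjustment over all genes; every adjusted p is from this fit or a named alternative. The script was tested on simulated data with known changes in the Nup210 comparison. It recovered 32% of log2 changes of 0.25, 70% of those of 0.5 and 100% of those of 1. Many changes of the smaller sizes were thus missed there. Each size was given to only 50 of 22180 genes, far fewer than the real Nup210 comparison called. With so few changed genes the adjusted threshold is stricter, so the recovered shares may understate those of the real fit. The typical SE of a difference was 0.080, which 6 arrays per group limit. The members, lists, alternatives and the rule for named genes (all members, Nup210 and Mef2c, up to 2 called genes per role and comparison with control, widest difference first, and 1 closest partner per member) were chosen with earlier results of these data known; Ryr1, Jph2, Speg and Pln, and single markers, were added after their values were seen. The alternatives were a block for the replicate number, a fit of only the compared groups, renewed quantile normalization, median centring, dim genes left out, averaging or separating probe sets, a trended robust prior, array weights, an adjusted p under 0.01, and leaving out arrays.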

Additional observations from a re-analysis of the deposited data

Results flagged for a closer look

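In 5 of 36 sets of 6 arrays (12 genes in 3 groups), 1 array lay far from the rest by Dixon's test, which marks about 1 in 20 such sets by chance. Control array 5 was low for Atp2a2 (11.59 against 11.68 to 11.72 in the other controls) and for Srl (11.17 against 11.26 to 11.31). Mef2c shRNA array 5 was low for Srl (10.93 against 11.09 to 11.16) and for Mef2c itself (7.51 against 7.88 to 8.08). For Nup210 the control array 6 was low, at 5.57, with the others at 5.75 to 5.81. Array 5 was the lowest of all 3 groups for both Atp2a2 and Srl, an order that 6.29% of genes tested share for some array number.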

How the results depend on the processing

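The counts of called members and of other calcium handling genes stayed within 1.5 times in 179 of 180 alternatives. The exception was the Nup210 comparison of other calcium handling genes, with 13 calls and 5 in the fit without Nup210 shRNA arrays 2, 4 and 5. The called members of that comparison went from 6 to 4 in the same fit, which a range of 1.5 times admits. Of 897 alternative values of single members, 866 kept direction and side of the threshold, 23 lost the call, 5 gained it and 3 changed sign. Most alternatives left out 1 array, in some cases of the group not compared, which leaves the difference itself unchanged. Differences not called in the main fit are also among the 897, so these counts do not measure how firm the calls are. The sign changes, all of uncalled differences, came with 1 array left out at a time. In such fits the Trdn difference with Nup210 shRNA ran from -0.0179 to 0.27. The Casq1 difference between the shRNA groups ran from -0.0012 to 0.30, and was 0.45 without Nup210 shRNA arrays 2, 4 and 5 together. The Atp2a2 difference between the shRNA groups passed with a trended robust prior (adjusted p = 0.0326), as did Srl (0.0452), and also without Nup210 shRNA array 6 (0.0434). At an adjusted p under 0.01 the Casq1 and Casq2 calls with Nup210 shRNA and that of Atp2a2 with Mef2c shRNA were lost.

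With the replicate number as a block, 6 members were called for Nup210 shRNA, 4 for Mef2c shRNA and 6 between the shRNA groups, where Atp2a2 was added (adjusted p = 0.0437). Of all genes, 10.01%, 12.9% and 15.9% were called in that fit, beside 8.16%, 10.8% and 14% without the block. No other call of a member changed. The SE of Casq1 fell to 0.110 and its adjusted p with Nup210 shRNA became 0.000392. Deviations of same-numbered arrays correlated from -0.18 to 0.22, below 0.1 for most pairs, and the labels give no shared culture or day, so the block was not the main fit. That 12 of 18 arrays correlated best with an array of their own number is a hint from the data of a shared factor, which was not tested. Sln lay below background, and the Nup210 probe set lay near it, which limits both.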
